A study of Mus musculus with 6 samples.

Results

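The claudins and other tight junction proteins are encoded by 36 of the 24421 gene symbols in the table. They were taken by name and include the numbered claudins (Cldn) except Cldn5 and Cldn11, the zonula occludens scaffolds Tjp1 and Tjp3, the MARVEL domain proteins Ocln, Marveld1, Marveld2 and Marveld3, the angulins Lsr, Ildr1 and Ildr2, the junctional adhesion molecules F11r, Jam2 and Jam3, and the scaffolds Cgn and Pard3. Of the 36 genes, 34 had a count in at least 1 sample and 30 had enough counts to be tested, and none of the 30 passed only through its level in 1 group. RNA was sequenced from 6 samples of cochlear explants of wild-type (WT) mice at postnatal day 2, 3 labelled control and 3 labelled neomycin. The explants were cultured for 12 h, exposed to neomycin, an aminoglycoside that kills hair cells (HCs), at 1 mM for 6 h, and cultured for 5 more days with EdU at 10 μM. The growth text is the same for all 6 samples, and control is read here, from the treatment label and the study's methods, as no neomycin. Each sample pooled 6 to 8 cochleae, and the tectorial membrane, the modiolus and the stria anlage had been removed before culture. Strain and sex are not given in the sources used here, and nothing says that the pools came from separate litters, so p-values measure the spread between these pools.

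Tight junctions seal the space between neighbouring epithelial cells near their apical surface. Claudins form the strands that set how tight the seal is and which ions pass. Occludin (Ocln), tricellulin (Marveld2) and Marveld3 lie in the same strands, and at corners where several cells meet angulins recruit tricellulin. Cytoplasmic plaque proteins of the zonula occludens family, with cingulin (Cgn) and the polarity protein PAR3 (Pard3), tie the strands to actin. In the organ of Corti the junctions between HCs and supporting cells (SCs) form the reticular lamina, which parts potassium-rich endolymph from the fluid around the HC bodies, and loss of claudin-9, claudin-14, tricellulin or ILDR1 causes deafness.

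The total counts were between 50471116 and 66068108 per sample, and levels are given as CPM, the counts scaled to a common library total with TMM factors. The explants carried markers of the organ of Corti: all 20 genes of a list of HC markers and all 20 of a list of SC markers had enough counts to be tested. The HC list summed to between 972 and 1118 CPM in control and between 325 and 402 CPM after neomycin, and 18 of its 20 genes were lower after neomycin at an adjusted p under 0.05 (edgeR quasi-likelihood test, Benjamini-Hochberg). The SC list summed to between 7354 and 8904 CPM in control and between 9750 and 12765 CPM after neomycin, with 4 genes higher and 5 lower at that threshold and a median log2 fold change of 0.04. Most of the higher sum came from Tectb, at 4230 ± 596 and 6445 ± 1520 CPM, and S100a1, at 1561 ± 216 and 2144 ± 126 CPM (SD, n = 3), named after their values were seen. At a fold change over 1.5 as well, Tectb was higher, while Prox1, Fgfr3 and Ngfr were lower, with log2 fold changes of -1.46, -0.66 and -0.60. With a correction for gene length, S100a1 had a log2 fold change of 0.08 (edgeR adjusted p = 0.494) and Tectb one of 0.58 (adjusted p = 0.0115). Of all genes tested, 16.1% were lower and 12.9% higher at an adjusted p under 0.05. In whole explants, fewer cells of a type and less RNA per cell cannot be told apart.

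Compared per exon length, the explants transcribed a few claudins at high levels. In control, claudin-9 (Cldn9), the claudin whose loss raises potassium around HCs, had 290 ± 43.1 RPKM (CPM divided by kilobases of exon; SD, n = 3). Claudin-6 (Cldn6), a claudin of embryonic epithelia, had 150 ± 9.62 RPKM, Cldn3 had 107 ± 2.09 RPKM, Cldn4 had 93.9 ± 6.47 RPKM and Cldn7 had 62.4 ± 5.80 RPKM. Claudin-3 and claudin-4 are receptors of a Clostridium toxin, and claudin-7 is common in simple epithelia. The control samples of these 5 genes did not overlap those of the next gene in the order. Cldn8 followed at 22 ± 0.273 RPKM, then Cldn12 at 18.4 ± 1.43 and Cldn23 at 17.6 ± 1.49 RPKM, which overlapped each other. Claudin-14 (Cldn14), which is made in HCs and SCs, was the ninth at 12.4 ± 0.918 RPKM. Cldn10, with 6.19 ± 1.35 RPKM, and Cldn22, with 5.95 ± 0.983 RPKM, overlapped each other, and Cldn24 stood at 3.61 ± 0.196 RPKM.

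Cldn9, Cldn6, Cldn3 and Cldn4 together made up 80.2% to 81.9% of the summed claudin RPKM in control and 80.3% to 81.5% after neomycin. Cldn9 alone was 36.5% ± 2.57 of that sum in control (SD, n = 3) and 37.0% ± 0.382 after neomycin, and Cldn6 was 19.0% ± 0.786 and 18.4% ± 0.512. The same 5 genes led in both groups, in the same order. Cldn14 made up 1.57% ± 0.158 in control and 1.13% ± 0.00993 after neomycin, and its samples did not overlap between the groups.

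**Figure D1:**
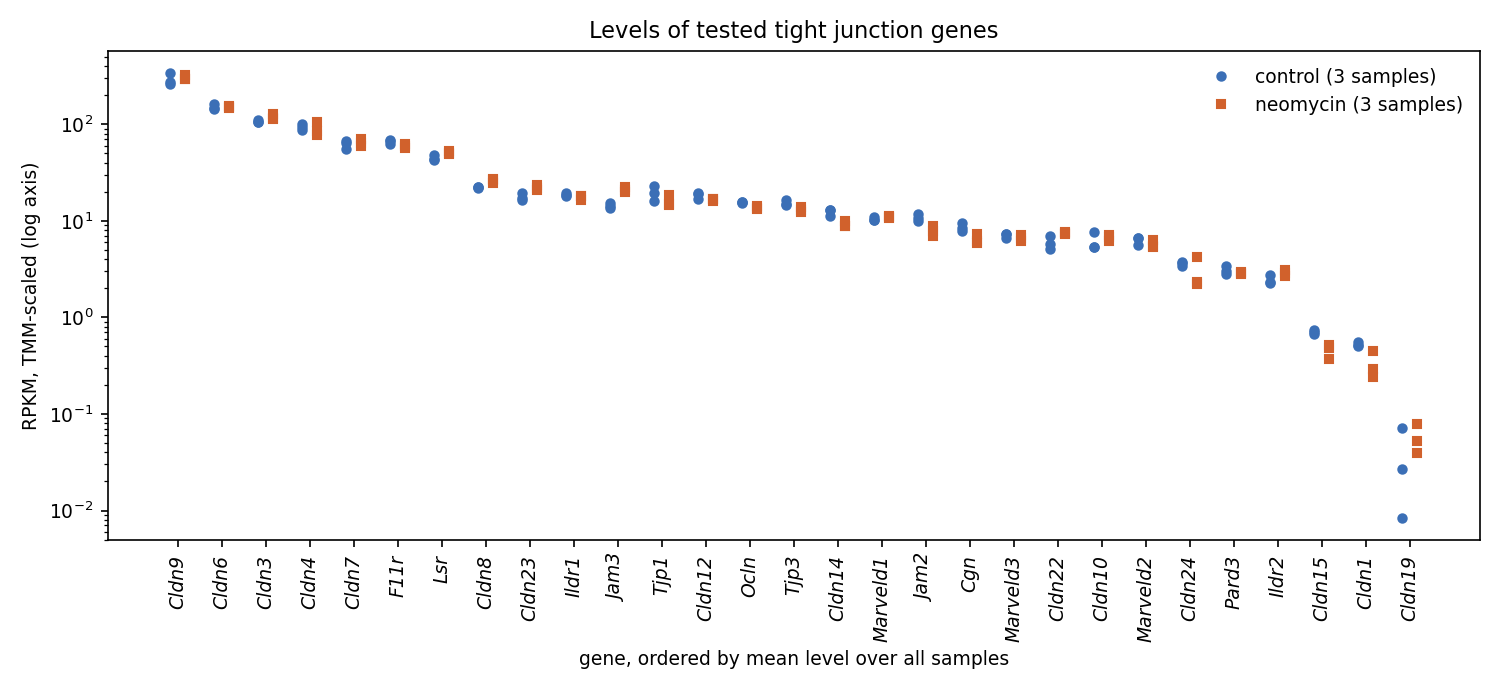
Level of tested tight junction genes in RPKM (vertical, log axis) in each of the 3 control samples (circles) and 3 neomycin samples (squares), with genes ordered by their mean. Cldn9 leads in both groups, at 290 RPKM in control and 304 RPKM after neomycin, and Cldn15, Cldn1 and Cldn19 lie below 1 RPKM.

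Some claudins known from other organs were low or not detected. Claudin-15 (Cldn15), a cation pore of the gut, had 0.704 ± 0.0350 RPKM in control, and claudin-1 (Cldn1), needed for the skin barrier, had 0.530 ± 0.0279 RPKM. Cldn19, a claudin of kidney tubules and Schwann cells, had between 2 and 21 counts in a sample. Cldn2, Cldn17, Cldn18 and Cldn20 were counted but not tested, with at most 11 counts in a sample. Cldn13 and Cldn16 had no count in any sample, where 3 counts in a library correspond to between 0.0435 and 0.0575 CPM. For these 6 genes the depth allows no statement on a difference between the groups.

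Neighbouring claudin genes complicate 2 of the values. Cldn24 and Cldn22 lie 1.7 kb apart on chromosome 8 on the same strand, each with 1 exon, and their coding sequences of 660 bases are equal at 595 positions, with 472 equal bases in a row. The stretches shown, from the GENCODE M21 transcripts on GRCm38, are 30 coding bases across the end of that run and the last 30 coding bases, and capitals mark the positions at which the genes differ, 2 in the inner stretch and 19 at the coding end. They are shown because a read from the equal run cannot be placed in either gene.
Cldn22, inner, chr8:47825077-47825106, plus strand: tcactgtgcagcctgctGgagcccGgctcc
Cldn24, inner, chr8:47822691-47822720, plus strand: tcactgtgcagcctgctCgagcccAgctcc
Cldn22, coding end, chr8:47825159-47825188, plus strand: ctGgaGCTGAAGCAAgCCAaTccAGaaAtC
Cldn24, coding end, chr8:47822773-47822802, plus strand: ctAgaAAATGGAACTgTACaGccTAaaGtG
Of the windows of 50 bases in the Cldn24 transcript, 68.89% also occur in transcripts of another gene, Cldn22 or Wwc2. The whole Cldn22 exon, 995 bases, lies on the opposite strand of an exon of Wwc2, a gene of the Hippo pathway, so that reads of Cldn22 and Wwc2 could not be told apart without strand, and the strand setting of the counting is not given in the sources used here. Wwc2 had 47.2 ± 5.92 CPM in control and 28.4 ± 2.91 CPM after neomycin (SD, n = 3; edgeR log2 fold change -0.73, adjusted p = 0.000460). Cldn22 had 5.92 ± 0.978 and 7.44 ± 0.122 CPM (log2 fold change 0.33, edgeR adjusted p = 0.110), and Cldn24 had 2.39 ± 0.130 and 1.93 ± 0.735 CPM (log2 fold change -0.30, edgeR adjusted p = 0.428). The values of both claudins are uncertain for these reasons.

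Between neomycin and control explants, 0 of the 30 tested tight junction genes were differentially expressed at an adjusted p under 0.05 and a fold change over 1.5 in edgeR's quasi-likelihood test, while 8.84% of all 15988 genes tested were, 2.24% higher and 6.60% lower. With the fold threshold and an unadjusted p under 0.05 there were 2, Cldn1 and Cldn15, and the share of all genes at that setting is not given here. DESeq2 and limma-voom each called 1, Cldn1, and called 1480 and 1423 of all 15988 genes. Without the fold threshold, 8 of the 30 genes passed an adjusted p under 0.05, or 26.7%, against 29.0% of all genes tested. Of these, 5 fell, among them Cldn14, Jam2, Cgn and Tjp3, where 16.1% of all genes fell, and Jam3, Cldn23 and Cldn8 rose, where 12.9% of all genes rose. No overlap between the groups was seen for 17 of the 30 genes, or 56.7%, against 43.5% of all genes, and 11 of the 30 genes, or 36.7%, were lower after neomycin without overlap, where 22.5% of all genes were, and 6, or 20%, were higher, where 21.0% of all genes were. For 21 of the 30 genes the 95% interval of the fold change lay within 1.5-fold in either direction. The 9 others were Cgn, Cldn14, Jam2 and Jam3, whose intervals reached beyond it, and Cldn1, Cldn15, Cldn19, Cldn22 and Cldn24, which had few counts and wide intervals. The median log2 fold change of the 30 genes was -0.10, beside 0.00 for all genes. With scaling by total count, which moved the median of all genes to -0.07, 9 genes were lower and 2 higher at an adjusted p under 0.05. With a correction for gene length 8 were lower and 2 higher. Past the fold threshold, all genes called went from 1055 lower and 358 higher to 1247 and 233 with total count scaling. With the gene length correction they were 947 and 232. Without control replicate 2, 4 of the 30 genes passed the adjusted p, 3 lower and 1 higher. The lower genes numbered 3 also without control replicate 1 or neomycin replicate 2, and the higher ones 6 without control replicate 3. Shares of all genes past the adjusted p alone are not given for these settings, so these counts are not read against 16.1% and 12.9%. Past the fold threshold there was 1 gene without control replicate 3, Jam3, and 2 without neomycin replicate 3, Jam3 and Cldn1. Of all genes, 1672 and 1207 were past it in these 2 settings.

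**Figure D2:**
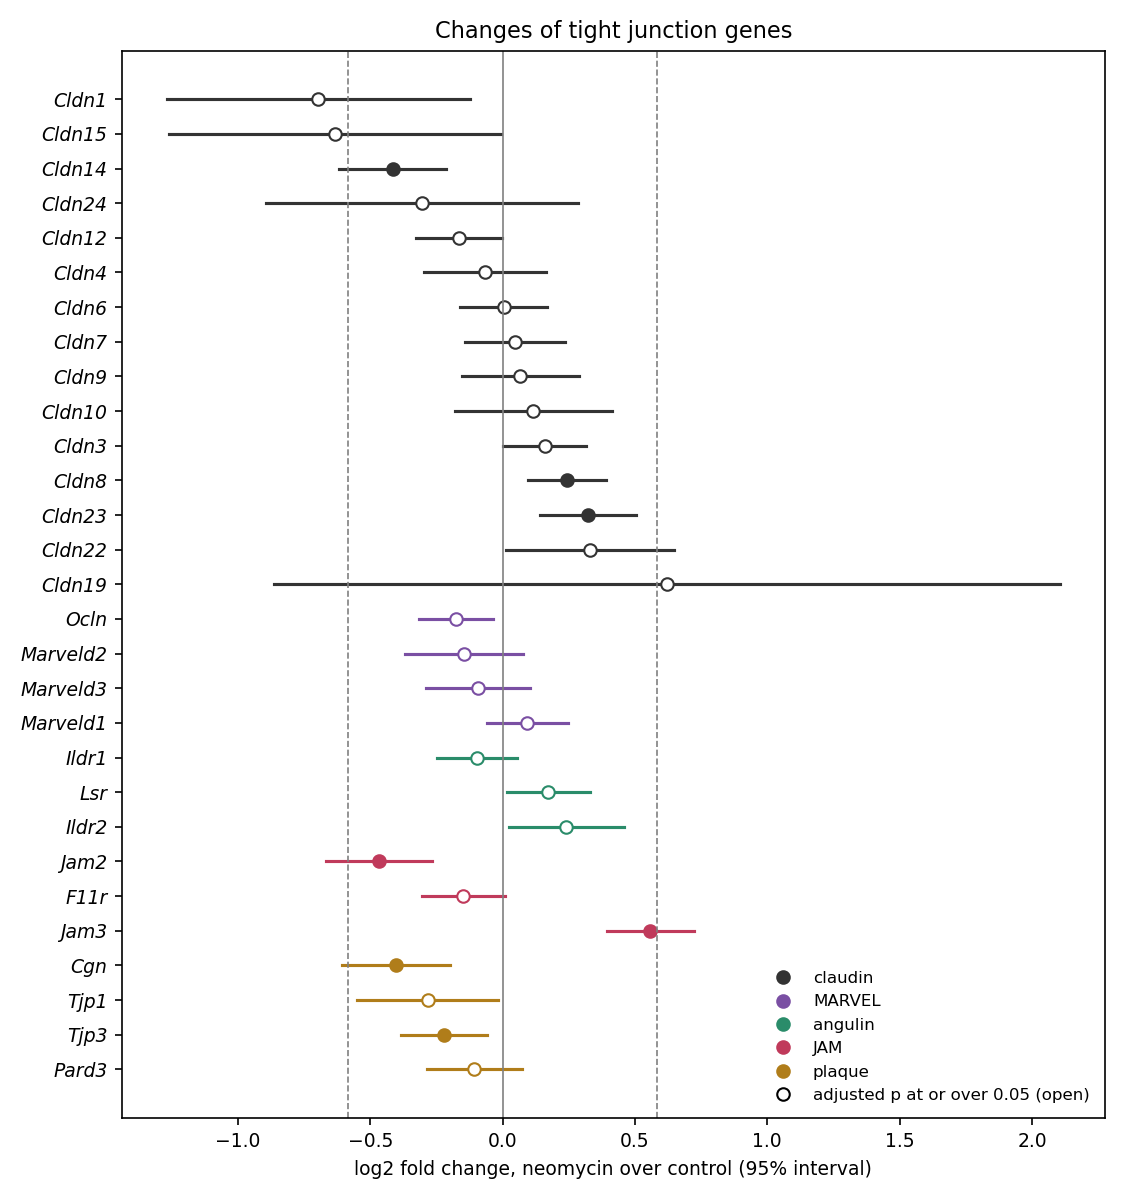
Log2 fold change of neomycin over control (horizontal) with its 95% interval (line) for tested tight junction genes, coloured by role; filled points have an adjusted p under 0.05, and dashed lines mark a fold of 1.5. No filled point lies beyond the dashed lines, and Jam3, at 0.56, comes closest.

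Among the 15 claudins tested, 1 fell, 2 rose and 12 did not pass an adjusted p under 0.05, where 16.1% of all genes fell and 12.9% rose. Cldn14, on chromosome 16 of mm10 from 93919031 to 94008837, was at 27.7, 24.1 and 27.3 CPM in control replicates 1, 2 and 3 and at 19.0, 19.0 and 21.3 CPM in neomycin replicates 1, 2 and 3. Every neomycin sample lay below every control sample. Its level was 25% lower, and the log2 fold change was -0.42 (standard error 0.09, edgeR adjusted p = 0.00633), and the call was kept in all 16 alternatives. Claudin-14 is a strand protein of the reticular lamina, and the HC markers, of which 17 of 20 were lower at a fold over 1.5 with a list median of -1.74 on the log2 scale, moved in the same direction; their part in the fall of Cldn14 was not tested.

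The 2 claudins that rose did so by small amounts. Cldn23, on chromosome 8 from 35824712 to 35826559, was at 30.4, 31.8 and 35.7 CPM in the control samples and at 42.9, 38.9 and 40.6 CPM in the neomycin samples. Its log2 fold change was 0.32 (standard error 0.08, edgeR adjusted p = 0.0134), and it was 0.13 with the gene length correction (adjusted p = 0.265) and 0.31 without control replicate 2 (adjusted p = 0.0578). Claudin-8 (Cldn8), which seals junctions of the distal kidney tubule, is encoded on chromosome 16 from 88560828 to 88563183. Its control samples were at 52.4, 52.2 and 51.2 CPM and its neomycin samples at 62.3, 58.7 and 63.5 CPM, without overlap. Cldn8 rose by 0.24 on the log2 scale (standard error 0.07, edgeR adjusted p = 0.0179), which was 0.10 with the gene length correction (adjusted p = 0.295) and 0.17 with scaling by total count (adjusted p = 0.0839). Without control replicate 2 its adjusted p was 0.0555, and without neomycin replicate 3 it was 0.0762 (edgeR).

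None of the 5 leading claudins passed the test. Cldn9, on chromosome 17 from 23682584 to 23684026, was at 375, 391 and 490 CPM in the control samples and at 427, 423 and 466 CPM in the neomycin samples. The groups overlapped, and control replicate 3 was above all other samples. The log2 fold change of Cldn9 was 0.07 (95% interval -0.16 to 0.29, edgeR adjusted p = 0.657), and it was -0.19 with the gene length correction (adjusted p = 0.0907). Cldn6 lies 137 bases from Cldn9, end to end on the other strand, from 23679249 to 23682446. It was at 254, 245 and 277 CPM in control and at 252, 258 and 269 CPM after neomycin, with overlap. Its log2 fold change was 0.00 (95% interval -0.16 to 0.17, edgeR adjusted p = 0.974), and the gene length correction moved it to -0.21 (adjusted p = 0.0255). Per length, the ratio of Cldn9 to Cldn6 was 1.92 ± 0.175 without and 2.01 ± 0.0525 with neomycin (SD, n = 3). The neighbours Cldn3 and Cldn4, which lie 39.3 kb apart on chromosome 5, had log2 fold changes of 0.16 (95% interval 0.00 to 0.32) and -0.07 (95% interval -0.30 to 0.17). The gene length correction turned the sign of Cldn3, at -0.13 (edgeR adjusted p = 0.160), and took Cldn4 to -0.28 (adjusted p = 0.0402). Cldn7 had 0.05 (95% interval -0.14 to 0.24) and -0.14 with that correction, and Cldn12, which lacks the PDZ-binding end of most claudins, had -0.16 (95% interval -0.33 to 0.00). The groups did not overlap for Cldn3 and Cldn12, whose unadjusted p-values were 0.0465 and 0.0489 (edgeR), but neither passed the test after adjustment.

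Lower claudins had the largest fold changes and the widest intervals. Cldn1 was at 2.51, 2.47 and 2.72 CPM in control and at 1.17, 1.41 and 2.18 CPM after neomycin, from 62 to 173 counts in a sample. The groups did not overlap, but neomycin replicate 3 was close to the control samples. Its log2 fold change was -0.70 (standard error 0.26, edgeR adjusted p = 0.0657). Of the fits that left 1 sample out, only that without neomycin replicate 3 passed, at -0.99 (edgeR adjusted p = 0.0246). Over all of these fits the log2 fold change of Cldn1 lay between -0.99 and -0.52, with an adjusted p of up to 0.187. Cldn15 was at 1.49, 1.57 and 1.42 CPM in control and at 1.09, 1.02 and 0.782 CPM after neomycin, which gave -0.63 on the log2 scale (standard error 0.29, edgeR adjusted p = 0.118). Cldn10, a pore-forming claudin with isoforms that the counts do not separate, had 16.0 ± 3.50 and 17.4 ± 1.31 CPM (edgeR adjusted p = 0.555).

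Short genes were in general higher after neomycin in these libraries. When all tested genes were put into 4 groups of like size by summed exon length, the median log2 fold change was 0.21 in the group with the shortest exons and -0.18 in that with the longest. The 15 claudins tested had a median exon length of 1948 bases, against 4252.5 bases for all genes tested, and the 15 other tight junction genes had 4296 bases. The claudin median was 0.05 without and -0.16 with the gene length correction, so its direction depended on the correction, while the median of the 15 others was -0.14 and -0.15. With that correction Cldn14 had -0.58 (edgeR adjusted p = 0.000470), further from 0 than without it. The causes of the length trend were not tested.

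**Figure D3:**
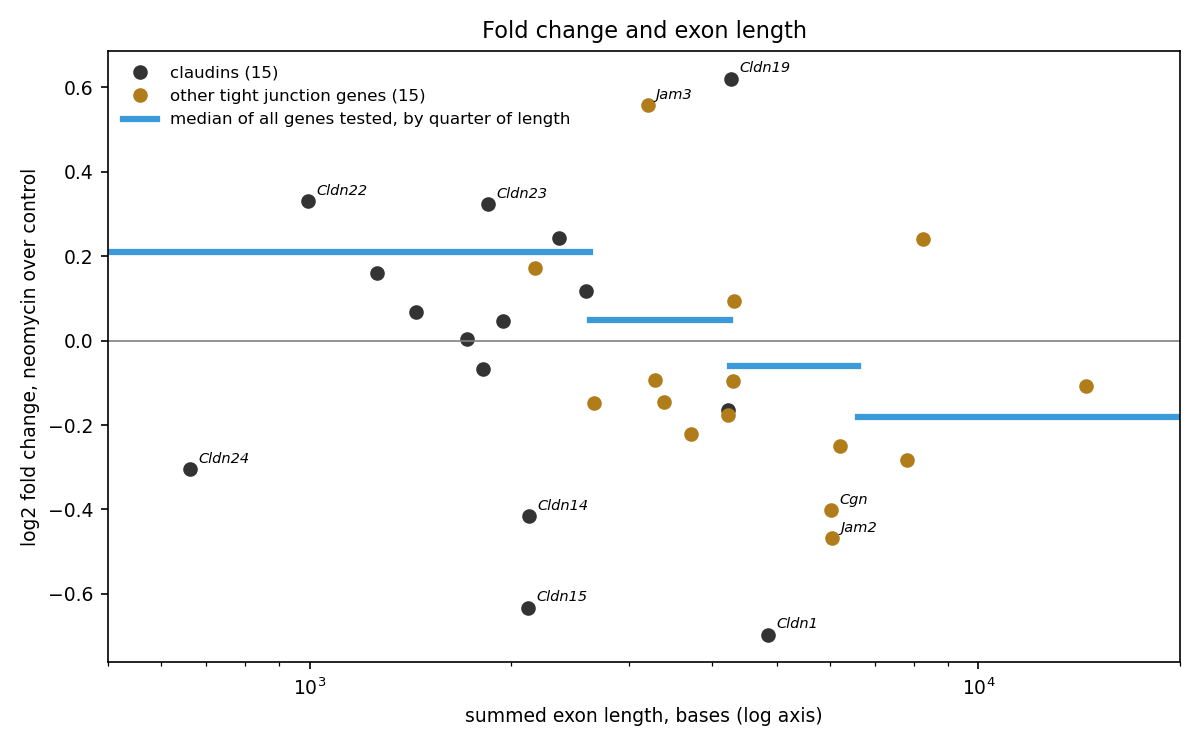
Log2 fold change of neomycin over control (vertical) against summed exon length in bases (horizontal, log axis) for 15 claudins and 15 other tight junction genes, with the median of all genes tested in each of 4 groups of length (bars). The bars go from 0.21 for the shortest group to -0.18 for the longest, and Cldn14, at -0.42, lies below the bar of its group.

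Among the 3 junctional adhesion molecules, Jam2 fell, Jam3 rose and F11r did not pass the test. JAM-B (Jam2) and JAM-C (Jam3) are immunoglobulin-like proteins that bind each other across cell contacts, in epithelia and in vessel walls. Jam2, on chromosome 16 from 84774123 to 84825928, was at 60.9, 71.6 and 65.3 CPM in the control samples and at 42.3, 47.4 and 53.2 CPM in the neomycin samples. Jam3, on chromosome 9 from 27097384 to 27155421, was at 45.8, 43.5 and 48.5 CPM in control and at 67.0, 72.2 and 63.6 CPM after neomycin. Neither gene overlapped between the groups, with Jam2 lower and Jam3 higher in every neomycin sample. Jam2 fell by 0.47 on the log2 scale (standard error 0.09, edgeR adjusted p = 0.00326), or 27.7%. Jam3 rose by 0.56 (standard error 0.08, edgeR adjusted p = 0.000331), or 47.2%, the smallest adjusted p of the 30 genes. Per length, Jam3 over Jam2 gave ratios of 1.42, 1.15 and 1.40 for the control samples and of 2.99, 2.88 and 2.26 for the neomycin samples. Both calls were kept in all 16 alternatives. On the other strand, Gm48796 overlaps 36.2% of the Jam3 exon bases, which unstranded counting could not separate.

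JAM-A (F11r), the member of the family common to epithelial tight junctions, did not pass the test. It was at 168, 185 and 177 CPM in control and at 166, 152 and 159 CPM after neomycin, with all neomycin samples below the control samples by a small margin. Its log2 fold change was -0.15 (95% interval -0.31 to 0.01, edgeR adjusted p = 0.142), and -0.26 with the gene length correction (adjusted p = 0.0163). Most endothelial markers moved in the direction of Jam2 and opposite to Jam3. Of 12 genes in the endothelial list, 8 were lower after neomycin at an adjusted p under 0.05, where 16.1% of all genes were. The list median was -1.60 on the log2 scale. The list summed to between 369 and 416 CPM in control and between 350 and 401 CPM after neomycin. Most of that sum came from Emcn, named after its values were seen. Emcn had 252 ± 12.1 and 273 ± 26.2 CPM (SD, n = 3, log2 fold change 0.12, edgeR adjusted p = 0.329). Pecam1 and Cdh5 had log2 fold changes of -2.71 and -2.05 (edgeR adjusted p = 2.66e-05 and 3.99e-06), and none of the 12 genes was at 0. The part of these markers in the changes of Jam2 and Jam3 was not tested.

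**Figure D4:**
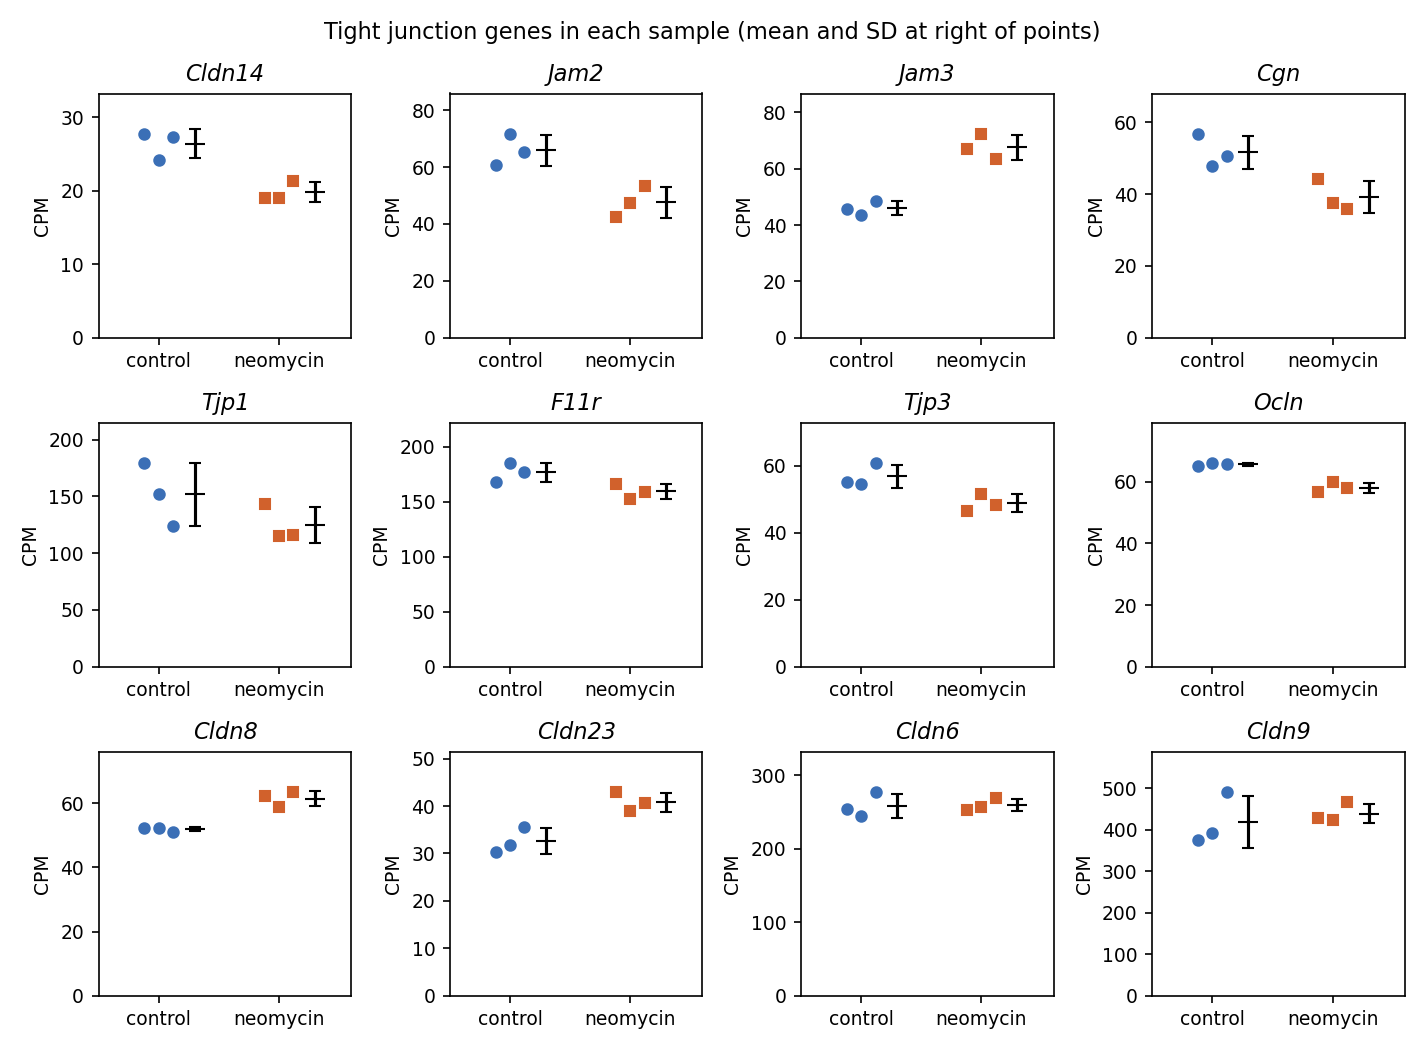
CPM (vertical, from 0) of 12 tight junction genes in each control sample (circles) and neomycin sample (squares), with the mean and SD of the 3 samples beside them. Jam3 is higher in all 3 neomycin samples, Cldn14, Jam2 and Cgn are lower in all 3, and Cldn6 and Cldn9 overlap between the groups.

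In the cytoplasmic plaque, Cgn and Tjp3 fell, while Tjp1 and Pard3 did not pass the test. Cingulin (Cgn), which links zonula occludens proteins to actin, is encoded on chromosome 3 from 94760069 to 94786492. It was at 56.7, 47.8 and 50.5 CPM in control and at 44.1, 37.4 and 35.8 CPM after neomycin, without overlap. The log2 fold change of Cgn was -0.40 (standard error 0.09, edgeR adjusted p = 0.00802), or 24.3% lower, and the call was kept in all 16 alternatives. Of the windows of 50 bases in Cgn transcripts, 17.17% also occur in transcripts of other genes.

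The zonula occludens genes Tjp1 and Tjp3 had small negative fold changes. Tjp1 (ZO-1), on chromosome 7 from 65296165 to 65527781, was at 179, 152 and 124 CPM in the control samples and at 143, 115 and 116 CPM in the neomycin samples. The groups overlapped, since control replicate 3 was below neomycin replicate 1. The log2 fold change of Tjp1 was -0.28 (95% interval -0.55 to -0.02, edgeR adjusted p = 0.102). Removing a single sample moved it to between -0.40 and -0.14, with edgeR adjusted p-values from 0.0146 to 0.393. Among these fits, Tjp1 passed only when control replicate 3 (adjusted p = 0.0146) or neomycin replicate 1 (adjusted p = 0.0326) was dropped. Tjp1 also passed with the replicate number as a block (-0.27, edgeR adjusted p = 0.00863). The gene length correction took it to -0.15 (edgeR adjusted p = 0.321). Tjp3 (ZO-3), found in epithelia, was at 55.2, 54.7 and 60.8 CPM in control and at 46.4, 51.7 and 48.3 CPM after neomycin, which gave -0.22 on the log2 scale (standard error 0.08, edgeR adjusted p = 0.0439). Leaving out any of the 6 samples took the adjusted p of Tjp3 to between 0.0661 and 0.123. Its call was also lost with upper quartile scaling (adjusted p = 0.0652). Pard3 had 45.0 ± 4.46 and 41.8 ± 1.45 CPM (SD, n = 3; log2 fold change -0.11, edgeR adjusted p = 0.356).

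None of the 4 MARVEL genes and none of the 3 angulins passed the test. Occludin (Ocln) was at 65.3, 66.0 and 65.6 CPM in control and at 56.6, 59.9 and 57.8 CPM after neomycin. The control samples lay within 1 CPM of each other and above all neomycin samples. The log2 fold change of Ocln was -0.18 (95% interval -0.32 to -0.03, edgeR adjusted p = 0.0599), and its adjusted p was 0.0453 with the gene length correction and 0.0170 with scaling by total count. Tricellulin (Marveld2), which lies 43.2 kb from Ocln on chromosome 13, was at 22.5, 22.6 and 19.0 CPM in control and at 21.3, 18.7 and 18.0 CPM after neomycin, with overlap. Its log2 fold change was -0.14 (95% interval -0.37 to 0.08, edgeR adjusted p = 0.312). Marveld3, which can stand in for occludin in part, and Marveld1 had log2 fold changes of -0.09 (95% interval -0.29 to 0.10) and 0.09 (95% interval -0.06 to 0.25).

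The angulins place tricellulin at tricellular corners. Ildr1, the angulin linked to deafness, was at 78.1, 82.9 and 80.1 CPM in control and at 77.3, 70.9 and 77.2 CPM after neomycin, a log2 fold change of -0.10 (95% interval -0.25 to 0.05, edgeR adjusted p = 0.319). Lsr was at 95.3, 93.0 and 105 CPM in control and at 114, 107 and 109 CPM after neomycin. All neomycin samples of Lsr were above the control samples, with a log2 fold change of 0.17 (95% interval 0.02 to 0.33, edgeR adjusted p = 0.0930), and it was 0.01 with the gene length correction (adjusted p = 0.908). Ildr2 had 20.2 ± 2.14 and 23.8 ± 1.69 CPM (SD, n = 3), with overlap and a log2 fold change of 0.24 (edgeR adjusted p = 0.0903), which was 0.39 with the gene length correction (adjusted p = 0.00815). Genes on the other strand cover 43.6% (Gm4673) of the Lsr exon bases and 11% (5330438I03Rik) of those of Ildr2.

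Other genes of the same junctions were read from the same fit. Of 32 tested partners of the tight junction plaque and of cell polarity, 13 were lower and 1 higher at an adjusted p under 0.05. Of all genes tested, 16.1% were lower and 12.9% higher at that threshold. With the fold threshold as well, 6 of the 13 passed, where 6.60% of all genes were called lower. Magi3, a PDZ scaffold, went from 58.2 ± 5.25 to 29.2 ± 1.92 CPM (SD, n = 3; log2 fold change -1.0, edgeR adjusted p = 1.14e-05). Lin7a, a polarity adaptor, went from 10.9 ± 1.28 to 4.91 ± 0.387 CPM (log2 fold change -1.15, edgeR adjusted p = 0.000126). Cgnl1, the relative of Cgn, was at -0.61 on the log2 scale (edgeR adjusted p = 0.00265), Pard3b, the relative of Pard3, had -0.68 (adjusted p = 0.00462), and Tiam1, a Rac activator that binds PAR3, had -0.59 (adjusted p = 0.0124). Esam, an adhesion molecule of endothelium that is also on the endothelial list, had -2.15 (edgeR adjusted p = 0.000184). The list median was -0.15, and -0.07 with the gene length correction. With that correction 8 of the 13 lower partners kept the call, 3 of them (Esam, Lin7a and Magi3) past the fold threshold, and Tiam1 lost it (adjusted p = 0.0550). Over all genes, 1779 of the 2571 lower ones kept the call. Without neomycin replicate 3, 3 partners passed the fold threshold, and so did 1207 of all genes.

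Of 15 tested genes of adherens junctions and nectins, 6 were lower and 0 higher at an adjusted p under 0.05. Of all genes tested, 16.1% were lower and 12.9% higher at that threshold. All 6 were below a fold of 1.5. With the gene length correction 2 of the 6 kept the call, where 1779 of the 2571 lower ones among all genes did. The list median went from -0.22 to -0.10. Nectin-1 (Pvrl1), which with nectin-3 sets the alternating pattern of HCs and SCs, fell from 18.9 ± 1.68 to 14.0 ± 0.903 CPM (SD, n = 3; log2 fold change -0.44, edgeR adjusted p = 0.00775), while Pvrl3 was at 0.02 on the log2 scale (adjusted p = 0.835). E-cadherin (Cdh1) had 291 ± 7.67 and 280 ± 21.2 CPM (edgeR adjusted p = 0.614), and Epcam had 758 ± 66.4 and 864 ± 11.2 CPM (edgeR adjusted p = 0.128). Pvrl3 and the general epithelial markers Cdh1 and Epcam were chosen after their values were seen.

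**Figure D5:**
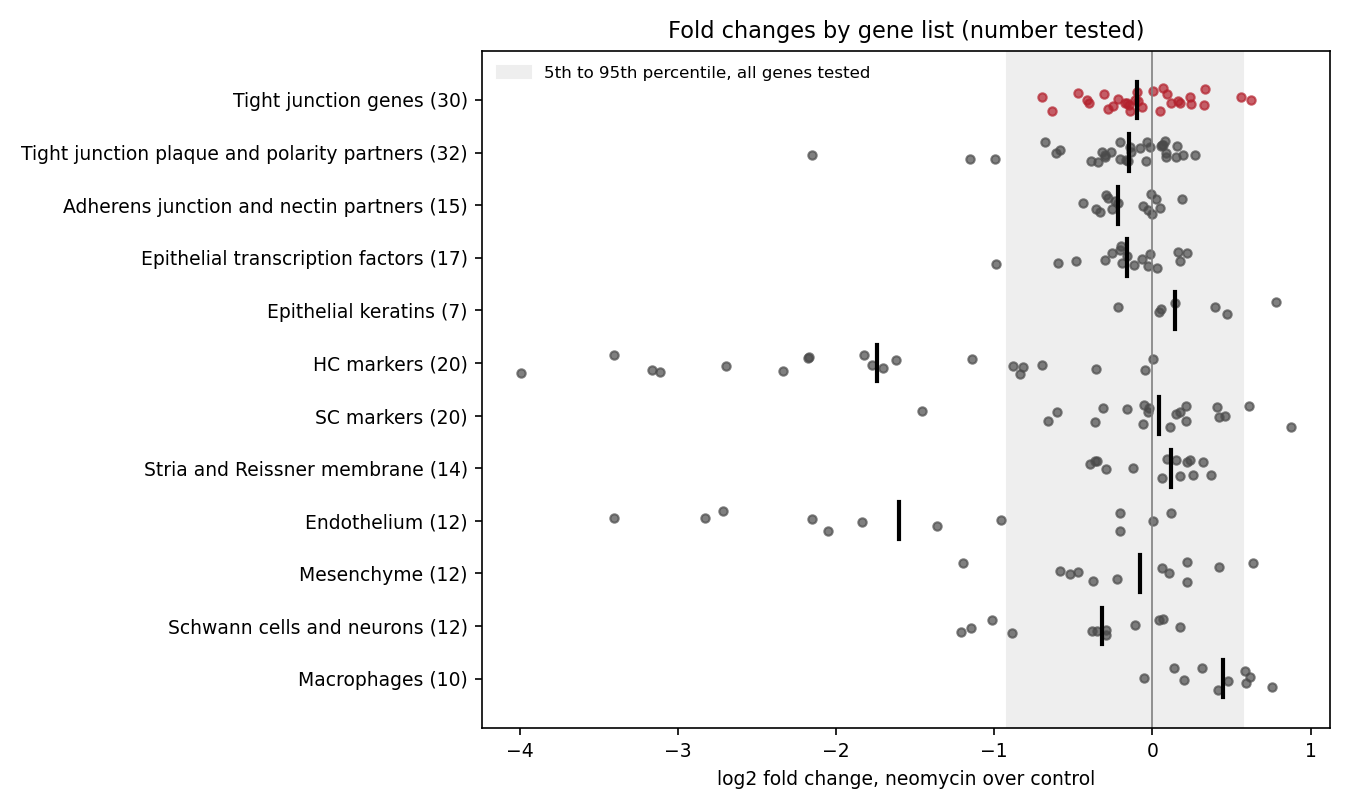
Log2 fold change of neomycin over control (horizontal) for the tested genes of each list (rows, number tested in brackets), with the list median (bar) and the 5th to 95th percentile of all genes tested (shaded). The 30 tight junction genes lie between -0.70 and 0.62, while the HC list has a median of -1.74 and the endothelial list of -1.60.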

How the data were processed

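RNA-seq libraries came from 3 control and 3 neomycin samples. Per the paper's methods and the labels, the authors used Casava 1.8, trimmomatic 0.23, Hisat2 on UCSC mm10 and HTSeq on the UCSC mm10 annotation, and deposited raw counts, which are whole read numbers for each symbol, not normalized. The strand setting and the annotation date are not given in the sources used here. Replicates differed by more than sampling noise (mean chi-square per gene 13.4 to 44.9 over pairs within a group).

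Counts were scaled by TMM, filtered with filterByExpr and tested with the quasi-likelihood test of edgeR 4.0.16 (R 4.3.3), neomycin against control, with Benjamini-Hochberg adjustment over 15988 genes. The study's methods used DESeq2 with the same thresholds, an adjusted p under 0.05 and a fold change over 1.5. Standard errors come from the log2 fold change and its F value (log2 fold change over root F), and 95% intervals use the t quantile of the fit. CPM are TMM-scaled, and RPKM divide them by the summed exon length in GENCODE M21 (GRCm38, the build of mm10), which gave a place for all 36 genes. The gene length and GC content corrections remove from each sample the lowess trend (span 0.3) of its log2 ratio; 99.2% of tested genes had a length. Other alternatives were DESeq2 1.42.0, limma-voom (limma 3.58.1), other scalings and filters, the replicate number as a block and each sample left out.

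The genes and lists were chosen with earlier results of these data known. Values in every sample are given for genes with an adjusted p under 0.05 and for Tjp1, Ocln, Marveld2, Ildr1, Lsr, F11r, Cldn6, Cldn9 and Cldn14, and also for Cldn1 and Cldn15, which were added after their values were seen. Of the other lists, up to 6 genes with an adjusted p under 0.05 and the largest fold changes could be named. The code was tested on simulated counts. Floors and depth cover counting error only. No protein sequences were used here. Counts cover all genes, but the values of 1 are not reported here.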

Additional observations from a re-analysis of the deposited data

How the results depend on the processing

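Over 16 alternatives for each of the 30 genes, 423 of the fold change results kept their direction and their side of an adjusted p of 0.05, 24 passed it in addition, 19 lost it and 14 turned their sign, of which 1 had an adjusted p under 0.05: Cldn6, at -0.21 with the gene length correction. That correction also turned Cldn3 (-0.13), Cldn7 (-0.14), Cldn9 (-0.19) and Pard3 (0.14). Total count scaling turned Cldn6 (-0.06) and Cldn7 (-0.02). Leaving out 1 sample gave -0.21 to 0.03 for Cldn4, -0.03 to 0.07 for Cldn6, -0.02 to 0.11 for Cldn7 and 0.00 to 0.21 for Cldn9. Of the 8 genes with an adjusted p under 0.05, 4 (Cldn14, Jam2, Jam3 and Cgn) passed in every alternative. The 0 tight junction genes past the fold threshold became 1 with DESeq2, with limma-voom, with scaling by total count and with the replicate block, and 0 to 2 when 1 sample was left out. In these settings, in that order, 1480, 1423, 1480 and 1465 of all genes were past it, and 1037 to 1672 when 1 sample was left out. The 8 genes past the adjusted p became 14 with the replicate block (8 lower and 6 higher, beside 20.2% and 17.4% of all genes) and 4 to 11 when 1 sample was left out. The 5 lower genes became 3 with upper quartile scaling, 9 with total count scaling, 8 with the replicate block, 8 with the gene length correction and 3 to 5 without 1 sample. The 3 higher genes became 6 with the replicate block and 1 to 6 without 1 sample. For alternatives other than the replicate block, shares of all genes past the adjusted p alone are not given here. The sources used here do not say whether samples with the same number were prepared together. The deviations of such samples from the group means correlated at 0.165, 0.026 and 0.095 over genes. Each sample correlated best with its own number except control replicate 2. The 6 partner genes past the fold threshold became 3 with the gene length correction and 3 to 6 without 1 sample (3 without neomycin replicate 3). Over all genes, 1413 were differentially expressed and 4629 without the fold threshold; the 358 higher ones became 233 with total count scaling, 232 with the gene length correction and 237 to 513 without 1 sample (237 without control replicate 2). The causes of these changes were not tested, and the fits that leave 1 sample out also have fewer samples. Depth limits Cldn19 and the 6 untested claudins.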

Other observations

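The 2 claudins left out by name differed in direction. Claudin-5 (Cldn5), the claudin of blood vessels, was at 5.00, 3.05 and 4.57 CPM in the control samples and at 0.866, 0.153 and 0.186 CPM in the neomycin samples, a log2 fold change of -3.40 (edgeR adjusted p = 0.000448). Claudin-11 (Cldn11), which seals the basal cells of the stria vascularis, was at 61.6, 58.6 and 56.1 CPM in control and at 73.3, 78.2 and 77.0 CPM after neomycin. Neither overlapped between the groups. Cldn11 rose by 0.37 on the log2 scale (edgeR adjusted p = 0.00232), and by 0.17 with the gene length correction (adjusted p = 0.107).

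Among epithelial transcription factors, 2 of 17 tested genes were lower and 0 higher at an adjusted p under 0.05: Ehf (log2 fold change -0.60, edgeR adjusted p = 0.00294) and Esrp2, a splicing factor kept on this list (-0.48, adjusted p = 0.0256). Grhl2, a known activator of claudin genes that was named after its values were seen, had 46.1 ± 1.14 and 40.2 ± 4.08 CPM (SD, n = 3; edgeR adjusted p = 0.0958). Of 7 epithelial keratins tested, Krt15 and Krt19 rose (log2 fold changes 0.78 and 0.47, edgeR adjusted p = 0.0394 and 0.00342), and Krt15 lost the call with the gene length correction (adjusted p = 0.148). Of all genes tested, 16.1% were lower and 12.9% higher at an adjusted p under 0.05. At the same threshold, 2 genes of the stria and Reissner membrane list were higher and 1 lower of 14. In the mesenchyme list 2 genes were higher and 4 lower of 12. In the Schwann cell and neuron list 5 were lower and 0 higher of 12, and 5 of the macrophage list were higher and 0 lower of 10. With the gene length correction 2 of the 5 macrophage genes, 4 of the 5 Schwann cell and neuron genes, 1 of the 2 higher stria and Reissner membrane genes and all 6 mesenchyme genes kept the call. Over all genes, 1134 of the 2058 higher and 1779 of the 2571 lower ones kept it.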
